A study of Mus musculus with 4 samples.

Results

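The genes described here are the subunits of the retromer coat and the sorting nexins and adaptor that work with it: Vps35, Vps26a, Vps26b, Vps29, Snx1, Snx2, Snx3, Snx6, Snx27 and Gga3. They are partners of the sorting receptor SORLA and were taken by symbol from the feature list, 10 genes of 55403 features. All 10 were found, and their levels were read in each cell class of 4 libraries of nuclei from pooled frozen mouse hippocampus. One library came from wild-type mice (WT). A pair of libraries came from PS19 mice, a B6;C3 line that carries human tau (MAPT, isoform 1N4R, mutation P301S) under the Prnp promoter. One library came from TG_PS19 mice, in which PS19 was crossed to the SORLA-Rosa26 line, whose SORLA transgene runs from a CMV/β-actin promoter. This promoter is broadly active and is not limited to neurons. The number, age and sex of the pooled animals are not given in the sources used here, nor is it said whether the PS19 pair came from separate pools. P-values of the genotype comparisons therefore measure only the spread between those 2 libraries, which may be technical. P-values between cell classes measure how far differences between classes vary over all 4 libraries.

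Retromer is a coat that collects receptors in the endosome and sends them back to the trans-Golgi network or the cell surface. Its core is a trimer of VPS35, VPS29 and 1 of the paralogues VPS26A and VPS26B. SNX1, SNX2 and SNX6 are SNX-BAR proteins, which bend the membrane into tubules. SNX3 brings the core to early endosomes, and SNX27 links it through a PDZ domain to receptors bound for the plasma membrane. GGA3 is an adaptor that binds sorting signals in the tails of receptors such as SORLA and of the β-secretase BACE1. VPS26 contacts the tail of SORLA, which makes the pair of VPS26 paralogues of interest where SORLA is raised.

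The paralogues Vps26a and Vps26b took different shares of VPS26 transcripts in different cell classes, and the 250 bases before a start site of each are shown to set the genes side by side. The sequences are from RefSeq (GRCm38.p6), whose table held 7 of the 10 genes. The Vps26a stretch lies at chr10:62486806-62487055 and that of Vps26b at chr9:27030095-27030344, both on the minus strand. A further Vps26a start was listed, with an entry at chr10:62486549-62486848, and its sequence is not shown. Both are printed 5′ to 3′, and capitals mark the 2 motifs searched on both strands. These are the E-box CACGTG, which reads the same on both, and the GC box, GGGCGG or its reverse complement.
Vps26a: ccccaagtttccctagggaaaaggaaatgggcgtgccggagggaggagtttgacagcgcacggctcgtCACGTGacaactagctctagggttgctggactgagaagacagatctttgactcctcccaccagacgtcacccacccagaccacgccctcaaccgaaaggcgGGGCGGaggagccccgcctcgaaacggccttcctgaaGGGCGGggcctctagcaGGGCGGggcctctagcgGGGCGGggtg
Vps26b: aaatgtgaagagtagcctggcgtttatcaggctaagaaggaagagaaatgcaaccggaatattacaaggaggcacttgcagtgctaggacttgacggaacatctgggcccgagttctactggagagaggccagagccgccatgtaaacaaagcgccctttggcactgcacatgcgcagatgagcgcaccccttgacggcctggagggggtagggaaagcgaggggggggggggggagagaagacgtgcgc
The Vps26a stretch shown held 1 E-box, 182 to 177 bases before its start, and 4 GC boxes. Motif counts before the other Vps26a start are not given here. The Vps26b stretch held neither. Over the same 250 bases of all 32851 promoters in the table, 6.02% held the E-box and 32.7% a GC box. Among the 7 members in the table, Vps26a alone held the E-box, and Vps26a, Vps29, Snx1, Snx6 and Gga3 held a GC box. The base composition was 64.4% G and C in the Vps26a stretch and 57.2% in that of Vps26b. A match of letters is a description of the sequence and was not tested for binding.

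By GENCODE M21 on GRCm38, all 10 members are protein-coding genes. Vps35 lies at chr8:85260392-85299802, Vps26a at chr10:62455235-62486805, Vps26b at chr9:27007771-27030065 and Vps29 at chr5:122354369-122364984. Snx1 lies at chr9:66088133-66126587, Snx2 at chr18:53176316-53220865 and Snx6 at chr12:54746349-54795703. Snx3 lies at chr10:42502030-42535381, Snx27 at chr3:94497544-94582716 and Gga3 at chr11:115584255-115604051. The annotation places Fam216a on the strand opposite Vps29, Orc6 opposite Vps35 and Mrps7 opposite Gga3, with overlapping ends. It also places Gm48673 within Vps26b, and Gm43773, Gm43774 and Gm43768 within introns of Snx27, on the same strand. Reads from the overlaps are uncertain.

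The 4 libraries held 4643 to 12762 barcodes, of which 4467 to 11458 were kept, and 20064025 to 48670533 UMIs (unique molecular identifiers, each standing for 1 captured RNA molecule). Between 36 and 67 barcodes of a library also occurred in another library. Human SORL1 was read at 65.8 UMIs per 1000000 UMIs (CPM) in TG_PS19 and at 0.37 CPM or less in the other libraries, and human MAPT was at 0 in WT and at 12.97 to 18.9 CPM in the 3 tau libraries. Xist was detected in 55.1% of TG_PS19 nuclei and in 0.80% to 1.46% of nuclei of the other libraries, and Y-linked UMIs in 28.2% against 68.6% to 76.6%. The TG_PS19 pool thus differed from the others in sex as well as in genotype, and their parts cannot be told apart in any comparison with it. Classes were rebuilt from clusters and marker lists, and 11 held at least 50 nuclei in every library. Their names mean that clusters resembled the class. Unnamed nuclei made up 14.1% to 21.5% of a library, including clusters 4 and 16, which are given by number. Cluster 4 had all 7 oligodendrocyte markers raised but Enpp6, a marker of committed precursors, as its leading gene.

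Of the core trimer, the scaffold Vps35 and the subunit Vps26a were highest in microglia and lowest in the pyramidal and granule neurons. A level here is the gene's UMIs per 1000000 UMIs of the class in a library, and levels are not compared between genes because gene length was not accounted for. In microglia Vps35 stood at 76.2 CPM in WT, 107.2 and 95.9 in PS19 replicates 1 and 2 and 69.5 in TG_PS19. In dentate granule neurons it stood at 43.6, 41.2, 35.9 and 35.6 in the same order, below every microglial value. The class means over the 4 libraries ran from 87.2 ± 17.4 CPM in microglia to 36.6 ± 2.63 in CA1 pyramidal neurons (SD, n = 4, over the 3 genotypes). Neighbouring classes overlapped at every step of that order. Vps26a ran from 69.8 ± 13.1 CPM in microglia to 18.1 ± 2.49 in dentate granule neurons and 15.9 ± 4.42 in CA1 neurons. Its highest CA1 value, 22.4 CPM, lay below its lowest value in microglia, 57.2, and in oligodendrocytes, 37.5.

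Vps29, which caps one end of the VPS35 solenoid, had another order. It was high in microglia at 72.3 ± 12.9 CPM, and the next classes were CA1 neurons at 62.3 ± 16.2 and dentate granule neurons at 57.5 ± 11.6. Inhibitory neurons at 56.2 ± 9.99 and endothelial cells at 56.2 ± 8.65 were level, and neighbouring classes overlapped at every step. Oligodendrocyte precursors stood at 38.0 ± 3.96 and Cajal-Retzius neurons, from 37 UMIs in all, at 31.8 ± 17.1. Fam216a, which overlaps the end of Vps29 on the other strand, differed between classes too. In WT, PS19 replicates 1 and 2 and TG_PS19 it stood at 43.4, 49.999, 51.1 and 36.1 CPM in dentate granule neurons. In CA1 neurons it stood at 34.8, 36.4, 38.9 and 33.2, and in microglia at 4.01, 4.73, 8.95 and 11.1. Its part in the class order of Vps29 was not tested. Vps26b was sparse, with 1470 UMIs in the 4 libraries against 5423 for Vps35, and its class means lay within 1.62-fold of each other. The dentate granule neurons, which held 449 of its UMIs, gave 14.6, 16.8, 16.6 and 13.8 CPM in WT, the PS19 pair and TG_PS19. Oligodendrocyte precursors were lowest at 10.3 ± 3.49 CPM, and no class stood clear of its neighbour.

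**Figure D1:**
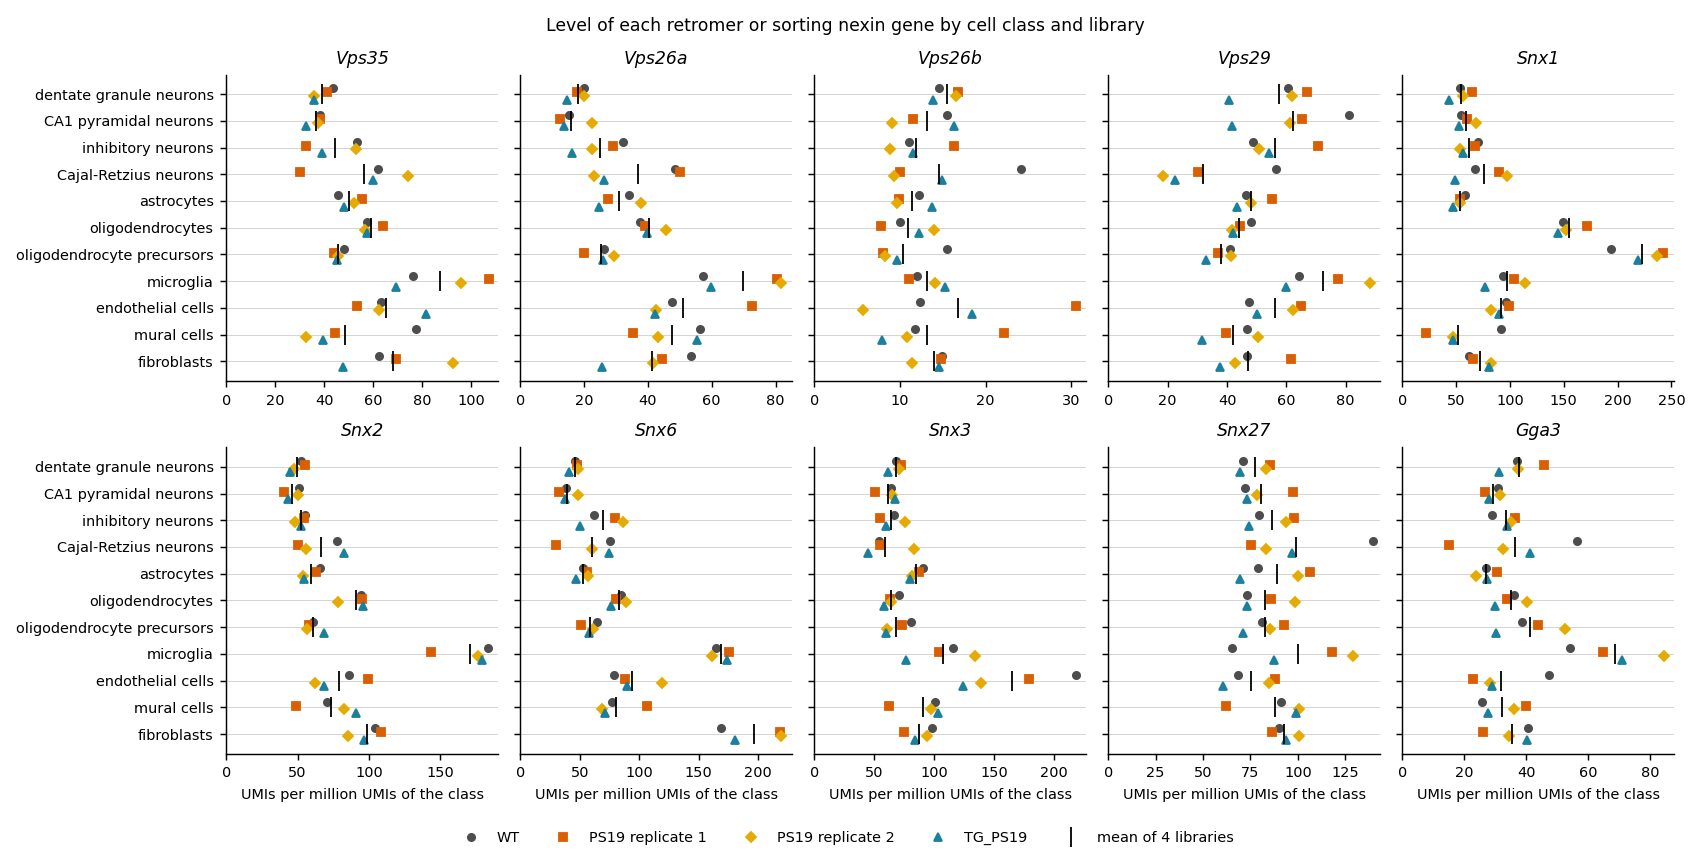
Each panel is 1 gene, with its level on the x axis (CPM, from 0) in 11 cell classes; symbols are the 4 libraries and the black bar is their mean. Snx1 stands out in oligodendrocyte precursors and oligodendrocytes (222.9 and 154.4 CPM), Snx2 in microglia (170.6 CPM), Snx6 in fibroblasts and microglia, and Snx3 in endothelial cells (164.9 CPM), while Snx27 differs little between classes.

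Set against each other within the same nuclei, the VPS26 paralogues shifted with cell class. Vps26b made up 42.3%, 48.7%, 45.4% and 48.5% of Vps26a plus Vps26b UMIs in dentate granule neurons of WT, PS19 replicates 1 and 2 and TG_PS19. In microglia the same share was 17.4%, 12.1%, 14.7% and 20.4%, and in oligodendrocytes 21.1%, 16.7%, 23.4% and 23.5%. Every granule-neuron value lay above every value of those glial classes. CA1 neurons averaged 45.4% ± 11.3 with 1 low library at 28.9%, inhibitory neurons 32.8% ± 7.41 and astrocytes 27.2% ± 6.43 (SD, n = 4). Not every neuronal class stood apart. Cajal-Retzius neurons averaged 28.7% ± 8.66 from 57 UMIs, as oligodendrocyte precursors did at 28.7% ± 6.24, and in WT the inhibitory neurons (25.5%) lay below the oligodendrocyte precursors (37.0%). The mean of dentate granule, CA1 and inhibitory neurons exceeded that of astrocytes, oligodendrocytes, oligodendrocyte precursors and microglia by 13.99, 23.3, 14.1 and 21.4 percentage points in the 4 libraries, or 18.2 ± 4.87. The mean of these 3 neuronal classes was higher in 4 of 4 libraries, and no test was made because an exact paired permutation over 4 libraries cannot reach 0.05 on 2 sides. The share counts UMIs and is not corrected for gene length, so only its difference between classes is read. In astrocytes TG_PS19 had 35.8% and the other libraries 20.3% to 26.4%.

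**Figure D2:**
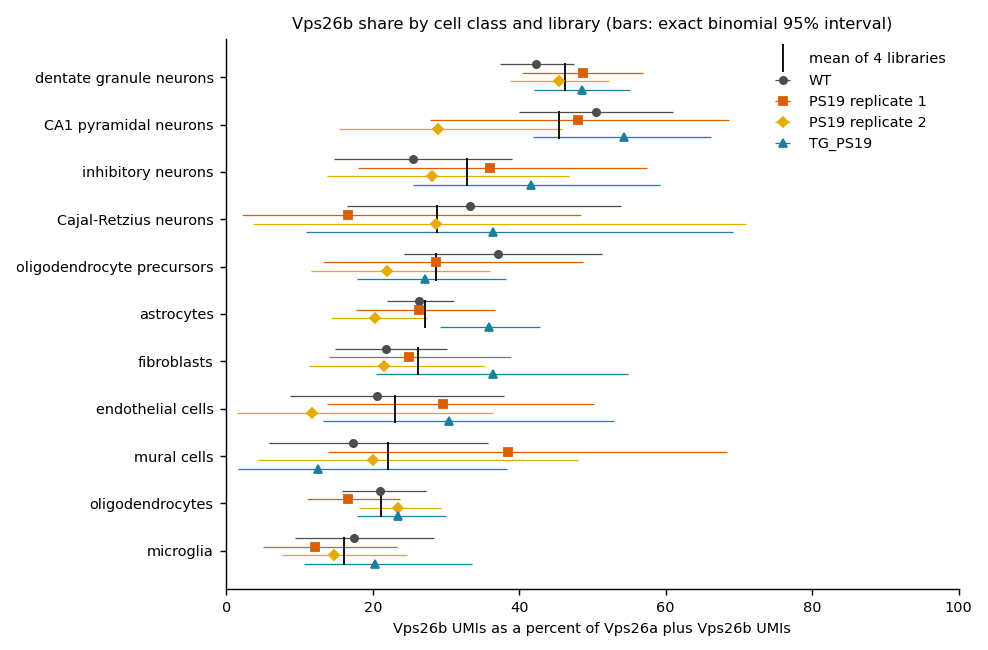
Vps26b UMIs as a percent of Vps26a plus Vps26b UMIs (x axis) by class and library, with the exact binomial 95% interval of each library, which covers counting error only, and the mean of 4 libraries as a black bar. Dentate granule neurons (46.2%) and CA1 neurons (45.4%) lie at the top and oligodendrocytes (21.2%) and microglia (16.1%) at the bottom.

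The SNX-BAR genes were each led by a different class. Snx1 stood at 193.9 CPM in oligodendrocyte precursors of WT, 241.8 and 236.9 in the PS19 pair and 218.8 in TG_PS19. Mature oligodendrocytes had 149.4, 171.2, 152.2 and 144.7 CPM. The ranges of these classes did not overlap, and microglia, next in order, reached no more than 113.8 CPM. Its paralogue Snx2 was led by microglia, with 183.5, 143.5, 176.4 and 179.2 CPM, clear of fibroblasts, whose highest value was 108.2. Snx1 made up 78.4% ± 2.69 of Snx1 plus Snx2 UMIs in oligodendrocyte precursors, 63.0% ± 2.73 in oligodendrocytes, 52.0% ± 2.25 in dentate granule neurons and 36.2% ± 5.45 in microglia. Snx6, which pairs with SNX1 or SNX2, was led by fibroblasts at 168.3, 218.6, 219.2 and 180.2 CPM and microglia at 164.5, 175.0, 161.1 and 173.6. These 2 classes overlapped, and endothelial cells, next in order, reached 118.8 CPM at most. CA1 neurons were lowest for Snx2 at 46.2 ± 5.38 CPM and for Snx6 at 39.4 ± 6.83.

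Snx3, which recruits the core without a BAR domain, was highest in endothelial cells, with 218.1, 179.3, 138.6 and 123.8 CPM in WT, PS19 replicates 1 and 2 and TG_PS19. Microglia followed at 107.5 ± 24.2 CPM, and the highest microglial value overlapped the lowest endothelial one. Every other class lay between 59.2 and 90.6 CPM on average. Snx27 was the most even of the 10 genes, with class means between 75.4 CPM in endothelial cells and 100.01 in microglia, a range of 1.33-fold. All neighbouring classes overlapped for Snx27. Gga3 was highest in microglia, with 54.2, 64.6, 84.4 and 70.8 CPM, each above the highest value of any other class but Cajal-Retzius neurons, where WT reached 56.4 from a class of 42 Gga3 UMIs. Astrocytes were lowest for Gga3 at 27.1 ± 2.77 CPM.

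The fit across all classes and 15818 genes, with the library as a block, put these orders to a test (edgeR quasi-likelihood F-test, Benjamini-Hochberg adjusted p under 0.05). Clusters had been drawn without the members, so the classes were not defined by them. Between the neuronal classes (dentate granule, CA1 and inhibitory) and the glial classes named above, 8 of 10 members passed, beside 72.4% of all genes tested, so this count does not set the members apart. Lower in neurons were Vps26a, by a log2 fold of -0.78 (SE 0.10, adjusted p = 1.24e-09), Snx1 (-0.76), Snx2 (-0.58), Snx6 (-0.47) and Vps35 (-0.29). Higher in neurons were Vps29, by 0.49 (SE 0.07, adjusted p = 9.44e-08), Vps26b by 0.46 (SE 0.13, adjusted p = 0.00215) and Snx27 by 0.13 (SE 0.06, adjusted p = 0.0433). The part of the Fam216a overlap in the Vps29 fold was not tested. Snx3 (-0.04) and Gga3 (-0.03) did not pass. These values depend on how the classes were scaled. With library totals in place of trimmed-mean (TMM) scaling, the median over all genes moved from 0.01 to -0.23 and that of the members from -0.16 to -0.41. The split of calls then went from 3 higher and 5 lower to 1 higher and 7 lower. Vps29 stayed higher in neurons at 0.25 (adjusted p = 0.00195) and Vps26b stood at 0.22 (adjusted p = 0.13). Thinned to 1000 UMIs per nucleus, Vps29 stood at 0.27 (adjusted p = 0.171), and 0 of 9 members tested were called higher and 5 lower. Snx27 turned to -0.11 (adjusted p = 0.1) under library totals and to -0.26 with thinned nuclei (adjusted p = 0.101), and without the WT library it stood at 0.04 (adjusted p = 0.654).

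Against the mean of the other 10 classes, 7 of 10 members were higher in microglia and none lower, beside 29.3% of all genes that were higher. The 7 were Snx2 by 1.14 on the log2 scale, Snx6 by 1.02, Vps26a by 0.90, Gga3 by 0.75, Vps35 by 0.51, Vps29 by 0.34 and Snx3 by 0.23. The members' median log2 fold was 0.43, and that of all genes was -0.12. Under library totals 8 members were higher, with medians of 0.67 and 0.13. Leaving out either PS19 library left 5 called, as did the fit without a filter on low counts, and nuclei thinned to 1000 UMIs left 5 of 9. In oligodendrocytes 5 members were higher (Snx1, Snx2, Vps26a, Vps35 and Snx6) and Snx3 was lower, beside 60.5% of all genes called. Library totals left 3 members higher there. Oligodendrocytes had 5 members higher in the fit without a filter and without either PS19 library, as many as microglia, and 6 of 9 with thinned nuclei. In oligodendrocyte precursors Snx1 was higher by 1.72 (SE 0.08, adjusted p = 1.92e-24), and Vps29 and Snx6 were lower, beside 45% of all genes called. Dentate granule neurons had Vps26b (0.59), Vps29 (0.55) and Gga3 (0.38) higher and Vps26a (-0.65), Snx6, Snx1 and Snx2 lower, beside 65.8% of all genes called. Their split depended on the scaling too, with 1 higher and 7 lower under library totals. Thinned nuclei left 0 of 9 members higher and 3 lower in granule neurons. CA1 neurons had Vps29 (0.77), Vps26b (0.47) and Snx27 (0.25) higher and Vps26a (-0.82), Snx6 (-0.65) and Snx2 (-0.31) lower, beside 59.7% of all genes called, and under library totals Vps29 alone was higher, 7 members were lower and Snx27 stood at -0.12. With thinned nuclei 0 of 9 members were higher in CA1 neurons and 1 was lower.

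Fibroblasts had Snx6 higher by 1.21 (SE 0.08, adjusted p = 7.57e-19) and Snx2 by 0.21, and Snx1 (-0.49) and Vps29 (-0.38) lower, beside 49.2% of all genes called. Under library totals 4 members were higher in fibroblasts and none lower. Endothelial cells had Snx3 higher by 0.92 (SE 0.11, adjusted p = 3.47e-09) and Snx27 lower by -0.49, beside 41.3% called, and library totals did not call Snx27 there (adjusted p = 0.228). The remaining classes had lower members alone. Astrocytes had Snx1 (-0.60), Snx6 (-0.53), Gga3 (-0.42) and Snx2 (-0.27) lower, beside 24.8% of all genes that were lower. Cajal-Retzius neurons had Vps29 (-0.73), Snx3 (-0.69) and Snx6 (-0.45) lower, beside 12.1%, and 1 of these 3 calls was left under library totals. Inhibitory neurons had Snx2 (-0.38) and Snx1 (-0.29) lower, beside 16.2%, and mural cells Snx1 (-0.71), beside 17.4%, with 1 member higher there under library totals.

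**Figure D3:**
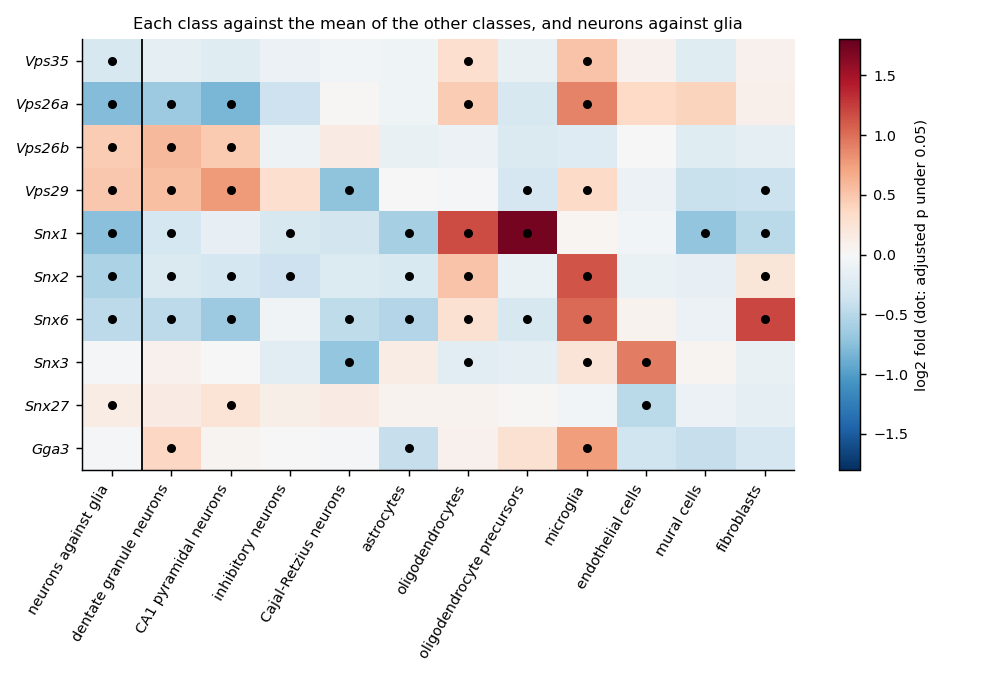
Fitted log2 folds of the 10 members (rows), for neurons against glia in the first column and for each class against the mean of the other 10 after it; red is higher, blue lower, and a dot marks an adjusted p under 0.05. Microglia carry 7 higher members and no lower one, and Snx1 in oligodendrocyte precursors has the deepest red, 1.72.

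Across the 11 classes, Vps35 ran with Snx2 (Pearson r = 0.94 of mean log2(CPM + 1)), Vps26a (0.89) and Snx6 (0.86), but not with Vps29 (0.15) or Vps26b (0.11). The points of these correlations share libraries and depth and are given as a description. Among 8419 genes of at least 20 CPM, the most similar class orders to that of Vps35 were those of Eed (0.98), Wwp2 (0.96) and Nsrp1 (0.96). For Vps26b they were D430042O09Rik (0.87), Trrap (0.86) and Ppp1cb (0.85), and for Snx27 they were D330023K18Rik (0.92), Kbtbd3 (0.91) and Rnf41 (0.90).

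The comparison of PS19 with WT asks what goes with the tau transgene. Each class was fitted on its own with all 4 libraries, and the spread between libraries comes from the PS19 pair alone, so that WT and TG_PS19 are taken to vary like it. Of 110 pairs of member and class, 108 could be tested, since Vps26b was too low in Cajal-Retzius neurons and mural cells. One pair was called, beside 3.03% of all gene and class pairs, and 8 had an unadjusted p under 0.05. The members' median log2 fold was 0.00, with 54 positive and 54 negative. The pair called was Snx27 in microglia. It stood at 65.2 CPM in WT, 118.2 and 129.1 in PS19 replicates 1 and 2 and 87.5 in TG_PS19. Both PS19 values lay above WT and TG_PS19. The log2 fold of PS19 over WT was 0.93 (SE 0.24, adjusted p = 0.00273), in a class where 9.46% of genes were called. DESeq2 gave the same fold, 0.93, with an SE of 0.55, and did not call it (adjusted p = 1.00), and nuclei thinned to 1000 UMIs gave 0.56 (adjusted p = 0.394).

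The microglia of the groups were of different clusters. Of the 2 microglial clusters, cluster 8 held 547 nuclei of WT, 44 and 45 of PS19 and 387 of TG_PS19, and cluster 13 held 42, 216, 237 and 23. Within cluster 8 Snx27 stood at 63.0, 33.1, 122.2 and 84.3 CPM, from 3 UMIs in the lower PS19 library. Within cluster 13 it stood at 92.0, 132.4, 130.3 and 138.0 CPM, from 7 UMIs in WT and 6 in TG_PS19. Median UMIs per microglial nucleus were 1605 in WT, 2205 and 2572 in PS19 and 1643 in TG_PS19. Of the 17 marker lists of other classes, 9 had both PS19 sums below WT and TG_PS19 in microglia, 1 (border macrophages) had both above, and 7 overlapped. The 7 oligodendrocyte markers, all detected, summed to 1098, 724, 577 and 1021 CPM, and the 7 astrocyte markers, all detected, to 853, 571, 542 and 758. The 7 endothelial markers summed to 121.3, 152.9, 111.2 and 66.7 CPM, and the 6 border macrophage markers, of which 2 were at 0 in every library, to 13.04, 28.4, 21.7 and 2.78. The microglial markers themselves summed to 12241, 10758, 9433 and 10956 CPM. The part of clusters, depth and other classes' RNA in the Snx27 result was not tested.

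The order seen for Snx27 in microglia was common across classes. Both PS19 libraries lay above WT and TG_PS19 in 8 of the 11 classes, all but Cajal-Retzius neurons, mural cells and fibroblasts. Among 8419 genes of at least 20 CPM, 1.22% showed that order in 8 or more classes. Median UMIs per kept nucleus had the same order, at 2479.5 in WT, 2944 and 3619.5 in PS19 and 2497 in TG_PS19. In oligodendrocytes they were 1817, 2301, 2891 and 1878, and in dentate granule neurons 6487.5, 8581, 10139 and 7654.5. The part of depth in the order of Snx27 was not tested. In astrocytes Snx27 stood at 79.2, 106.3, 100.3 and 69.7 CPM, in oligodendrocytes at 73.0, 86.0, 98.3 and 73.0, and in dentate granule neurons at 70.8, 85.5, 83.1 and 69.2. None of these passed the adjusted threshold for PS19 over WT, with log2 folds of 0.36 (adjusted p = 0.166), 0.38 (adjusted p = 0.129) and 0.27 (adjusted p = 0.258). With cluster 4 joined to the class, Snx27 in oligodendrocytes was also called. The classes come from the same libraries and are not independent, and this order was singled out after the values were seen. No other member showed it in more than 6 classes, and Snx1 showed it in 6.

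**Figure D4:**
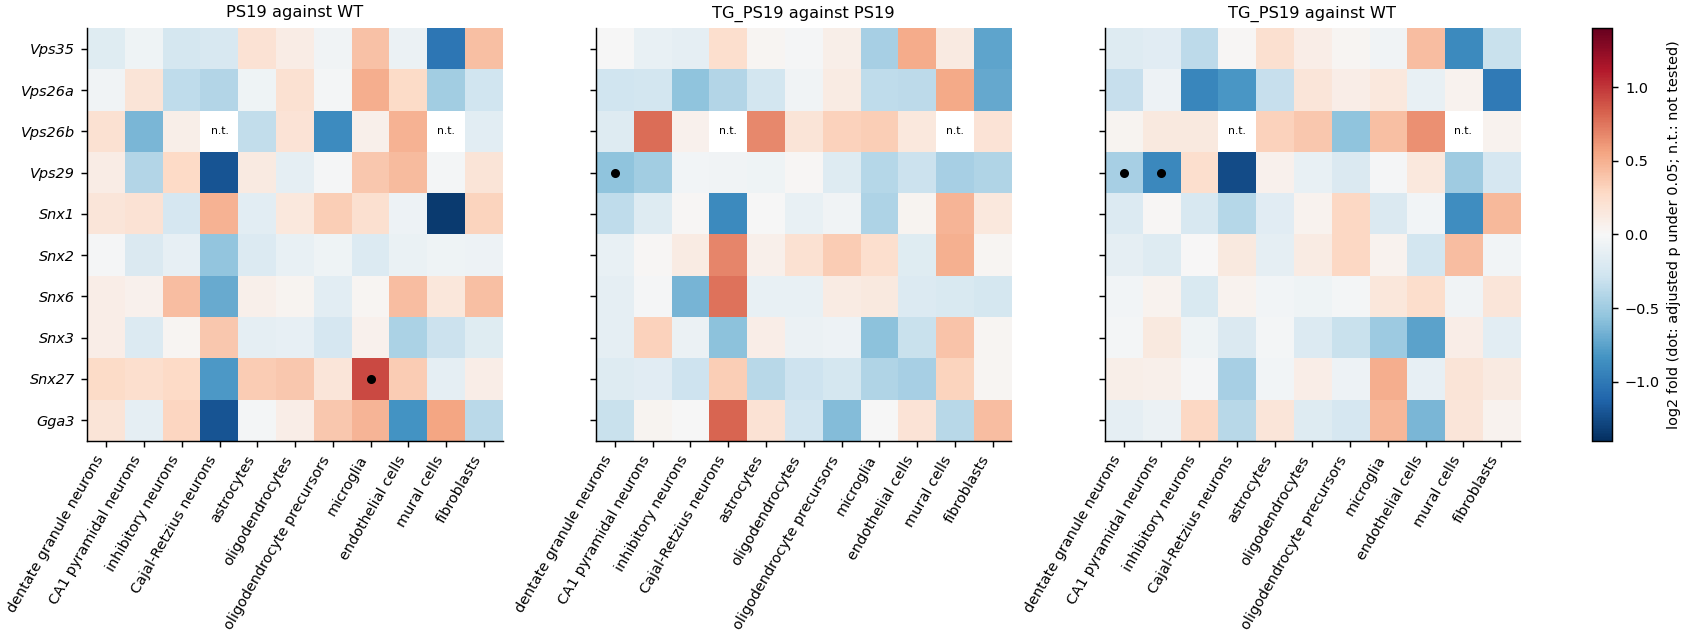
Fitted log2 folds of the 10 members (rows) in 11 classes (columns) for the 3 genotype comparisons; red is higher in the group named first, blue lower, a dot marks an adjusted p under 0.05, and n.t. a pair that was not tested. The dots are Snx27 in microglia for PS19 against WT and Vps29 for TG_PS19, in dentate granule neurons against PS19 and in dentate granule and CA1 neurons against WT.

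TG_PS19 was set against PS19 to see what goes with raised SORLA on the tau background, with the same PS19 libraries as in the comparison before. One of 108 pairs was called, beside 4.71% of all gene and class pairs, and 10 had an unadjusted p under 0.05. The members' median log2 fold was -0.06, with 44 positive and 64 negative. The pair called was Vps29 in dentate granule neurons. Vps29 stood there at 60.7 CPM in WT, 66.8 and 62.0 in PS19 and 40.5 in TG_PS19, where TG_PS19 was lowest and the other 3 close together. The log2 fold of TG_PS19 over PS19 was -0.57 (SE 0.13, adjusted p = 0.000753), in a class where 9.13% of genes were called and 2.95% were lower. With only the TG_PS19 nuclei that held Y-linked UMIs and no Xist, the fold was -0.73 (adjusted p = 0.00576). That filter was set on TG_PS19 alone, where 2161 of 8963 kept nuclei passed it. Nuclei without a Y-linked UMI stayed in the other libraries, so the arms were selected differently and the fold is no check on sex. Over all nuclei DESeq2 gave -0.57 with an SE of 0.24 and did not call Vps29 (adjusted p = 0.24), and thinned nuclei gave -0.41 (adjusted p = 0.647). Fam216a, which overlaps the end of Vps29 on the other strand, stood at 43.4 CPM in WT, 49.999 and 51.1 in PS19 and 36.1 in TG_PS19 in the same neurons. The 7 CA1 markers, all detected there, summed to 117.2, 116.4, 106.1 and 71.5 CPM and the 7 granule-neuron markers to 3364, 3353, 3410 and 3738. The part of either in the Vps29 result was not tested.

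In CA1 neurons Vps29 stood at 81.2, 65.1, 61.3 and 41.8 CPM. TG_PS19 was again lowest and WT highest. The fold of TG_PS19 over PS19 was -0.49 and not called (adjusted p = 0.421). Over WT it was -0.90 (SE 0.24, adjusted p = 0.0171), and in dentate granule neurons -0.47 (SE 0.14, adjusted p = 0.027). These were the 2 of 108 pairs called between TG_PS19 and WT, beside 1.82% of all gene and class pairs, and both arms of that comparison are single libraries. Among the Y-linked TG_PS19 nuclei neither was called, at -0.67 (adjusted p = 0.429) and -0.63 (adjusted p = 0.0574), and DESeq2 called neither (adjusted p = 1.00 and 0.866). Thinned nuclei gave -0.06 in dentate granule neurons (adjusted p = 0.97), and the fit without a filter on low counts did not call that pair (adjusted p = 0.0607). TG_PS19 was the lowest library for Vps29 in 7 of 11 classes, and for Snx3 in 7 as well. Of the 8419 genes of at least 20 CPM, 15.4% had TG_PS19 lowest in 7 or more classes. These levels use library totals without TMM scaling, and TG_PS19 was lowest in 34.7% of all pairs of these genes and classes.

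**Figure D5:**
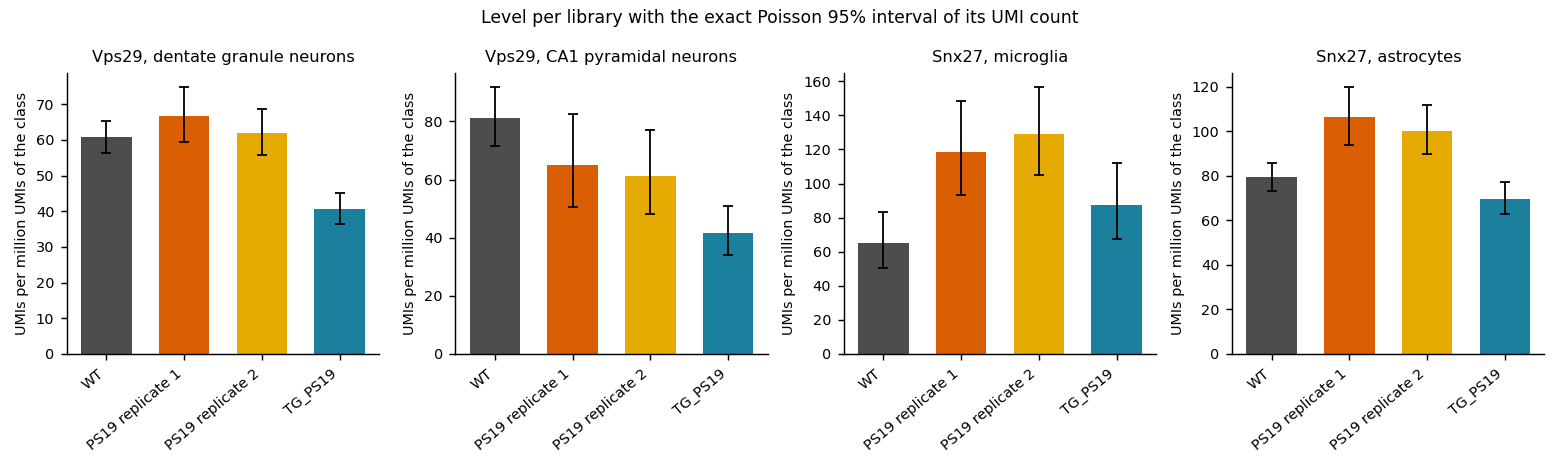
Bars are levels per library (CPM, from 0) of Vps29 in dentate granule and CA1 neurons and of Snx27 in microglia and astrocytes; error bars are exact Poisson 95% intervals of the UMI count, which cover counting error only. TG_PS19 has the lowest Vps29 bar in both neuronal classes (40.5 and 41.8 CPM), and the PS19 pair has the highest Snx27 bars in both glial classes.

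The difference of effects between dentate granule neurons and oligodendrocytes, the largest neuronal class and the largest class of all, was tested for each member and for both comparisons. None of the 20 differences was called by edgeR, beside 3.44% of genes for PS19 against WT and 2.13% for TG_PS19 against PS19, and 1 had an unadjusted p under 0.05. That one was Vps29 for TG_PS19 against PS19, where the fold in granule neurons was lower than that in oligodendrocytes by -0.54 on the log2 scale (SE 0.20, adjusted p = 0.174). Vps29 in oligodendrocytes stood at 48.0, 44.3, 41.8 and 41.9 CPM.

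The remaining members gave no called pair in any genotype comparison. Vps35, the scaffold, stood in microglia at 107.2 and 95.9 CPM in PS19 against 76.2 in WT and 69.5 in TG_PS19, and it was called lower in TG_PS19 only where that library was restricted to nuclei with Y-linked UMIs. The other libraries were not restricted in that way. Within microglial cluster 8 Vps35 stood at 78.2 CPM in WT, 22.1 and 61.1 in PS19 and 71.0 in TG_PS19, from 2 UMIs in the lower PS19 library. Within cluster 13 it stood at 52.6, 121.4, 101.8 and 46.0 CPM, from 4 UMIs in WT and 2 in TG_PS19. Snx1 in dentate granule neurons stood at 53.8, 64.3, 56.0 and 43.6 CPM, a fold of -0.36 for TG_PS19 over PS19 (adjusted p = 0.0715). It was called under library totals, as was Snx27 in astrocytes (-0.39, adjusted p = 0.102 with TMM). Gga3 in oligodendrocyte precursors stood at 38.6, 44.0, 52.5 and 30.2 CPM, a fold of -0.61 for TG_PS19 over PS19 (adjusted p = 0.387). Snx3 in microglia stood at 115.3, 104.0, 134.2 and 76.4 CPM, a fold of -0.57 (adjusted p = 0.156). Microglial values of Vps35 and Snx3 carry the same difference in clusters, depth and markers as Snx27. In mural cells, where Snx1 rests on 69 UMIs, the fold of PS19 over WT was -1.34 (adjusted p = 0.305). For Vps26a, Vps26b, Snx2 and Snx6 no pair had an adjusted p under the threshold either, and for Vps26b the counts limit what could be seen.

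Genes that act with retromer were read from 6 lists. The other SNX-BAR nexins (9 genes) had 2 pairs higher and 1 lower in PS19 against WT, and 3 lower in TG_PS19 against PS19. That is 3.49% of 86 pairs in each comparison, beside the 3.03% and 4.71% of all pairs. Snx8 in microglia stood at 64.2 CPM in WT, 134.0 and 124.0 in PS19 and 47.2 in TG_PS19. It rose by 1.00 (SE 0.25, adjusted p = 0.00107) in PS19 and was lower by -1.36 (SE 0.28, adjusted p = 6.36e-05) in TG_PS19. Snx9, which takes part in endocytosis, stood at 48.7, 69.0, 68.4 and 40.9 CPM in oligodendrocytes and was called in both comparisons (0.53 and -0.69), though the PS19 call was lost in 6 of 11 alternatives with a test. Snx7 in dentate granule neurons was lower in PS19 by -0.67 (48.5 CPM in WT, 30.9 and 29.5 in PS19) and stayed at 26.3 CPM in TG_PS19. Snx18 there was lower in TG_PS19 against PS19 by -0.83. Both comparisons use the PS19 pair, so a gene that is high or low in that pair moves in both.

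Of the other sorting nexins (14 genes), 2 pairs were higher in PS19 against WT, and 1 was higher and 3 lower in TG_PS19 against PS19. These are 1.48% and 2.96% of 135 pairs, below the shares of all pairs. Snx24 in microglia stood at 373.0 CPM in WT, 646.3 and 749.1 in PS19 and 370.9 in TG_PS19 (0.91, adjusted p = 1.44e-06, and -0.83, adjusted p = 3.54e-05). Snx10 in oligodendrocytes, which works with the vacuolar proton pump, stood at 4.78, 13.3, 16.7 and 3.11 CPM (1.70 and -2.22). Snx19 in microglia was higher in TG_PS19 against PS19 by 1.21 (adjusted p = 0.047), a call lost in 7 of 9 alternatives with a test. In the retriever and CCC complex, which recycles receptors beside retromer, 14 of 16 listed symbols were in the files, and the other two are older names of listed genes. Of 103 pairs, 0.971% were called in PS19 against WT and 1.94% in TG_PS19 against PS19. Commd8 in microglia stood at 164.5, 85.1, 69.0 and 147.2 CPM, lower in PS19 by -1.10 and higher in TG_PS19 against PS19 by 1.03. It was also higher in dentate granule neurons of TG_PS19 (0.97, adjusted p = 0.0314), and no other gene of that list was called in a genotype comparison. The microglial values of these genes carry the same difference in clusters, depth and markers as Snx27. Depth and markers differed too in oligodendrocytes, the class of the Snx9 and Snx10 calls and of a Pacs1 call given below. Astrocyte markers summed there to 672.2 CPM in WT, 264.7 and 237.1 in PS19 and 488.3 in TG_PS19. Microglial markers summed to 251.1, 163.4, 120.1 and 172.7. Not every list had this order, and CA1 markers summed to 115.3, 96.7, 91.4 and 84.9. The part of these differences was not tested.

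No gene of the WASH complex, which drives actin growth on retromer tubules, was called by edgeR in a genotype comparison over 81 pairs. An unadjusted p under 0.05 was reached by 5, 6 and 5 pairs of the 3 comparisons in turn. Of all gene and class pairs, 3.03%, 4.71% and 1.82% were called in these comparisons. Of the retromer regulators (11 genes, 98 pairs), the single call was Lrrk2, a kinase that acts on Rab proteins, lower in dentate granule neurons of PS19 by -0.77 (33.0 CPM in WT, 18.2 and 19.8 in PS19, 23.0 in TG_PS19, adjusted p = 0.000462). That is 1.02% of the regulator pairs in PS19 against WT. Of the GGA and AP-1 adaptors (11 genes, 97 pairs), 1 pair was called in PS19 against WT and 2 in TG_PS19 against PS19. These are 1.03% and 2.06% of the adaptor pairs, below the shares of all pairs. Pacs1 was higher in fibroblasts of PS19 (0.64, adjusted p = 0.0469) and lower in oligodendrocytes of TG_PS19 against PS19 (-0.64), calls lost in 4 of 10 and 5 of 11 alternatives with a test. Gga2 in microglia was lower in TG_PS19 against PS19 by -1.58 (19.1 CPM in WT, 39.4 and 32.0 in PS19, 11.1 in TG_PS19, adjusted p = 0.0329), lost in 4 of 9. Between TG_PS19 and WT, Snx7 in dentate granule neurons was the single call over all 6 lists (-0.77, adjusted p = 0.000232). It makes up 1.16% of the 86 pairs of its list, beside 1.82% of all pairs. Between neurons and glia, 4 of 8 WASH genes were lower in neurons and none higher, and 5 of 10 adaptors tested were higher and 1 lower. Of 9 other SNX-BAR nexins 3 were higher and 6 lower, and of 14 other sorting nexins 4 and 6. Retriever and CCC genes had 1 higher and 5 lower of 10 tested, and the 11 regulators 4 and 4. Of all genes 38.1% were higher and 34.3% lower, or 72.4% called. These counts are from TMM scaling alone. Ap1s3 was higher by 4.05 and Gga2 by 1.39, and Tbc1d5, which takes RAB7 off the retromer membrane, was lower by -1.31.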

How the data were processed

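The values are UMI counts per gene and nucleus of 4 libraries, deposited by the authors as raw counts. The libraries used a 10x Genomics 3′ kit with about 10000 nuclei loaded each, per the labels' protocols. WT held 12762 barcodes, more than that figure, and the reason was not tested. The counting tool was Cell Ranger 7.1.0 (per the file headers) on GRCm38, per the submitters' processing notes. The counting of intron reads and of strand is not given in the sources used here. Levels are of nuclear RNA.

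Barcodes under 500 UMIs, under 300 genes or above 5% mitochondrial UMIs were left out. Doublets were scored per library as in Scrublet, with 2 artificial doublets per nucleus, and the highest scores were removed at 0.8% per 1000 nuclei (1303 WT, 172 and 194 PS19 and 756 TG_PS19 nuclei). The first 30 principal components of 2000 variable genes, without the members and listed pathway genes, gave 34 clusters (15 neighbours, Leiden, leidenalg 0.10.2, resolution 1.0, Python 3.11.15). A cluster was named from 18 marker lists where at least 4 markers, or 50% and at least 3, were raised by a log2 fold of 1 with detection in 10% of nuclei. It stayed unnamed where markers of another class outnumbered its own among its 10 leading genes. That rule, the members and the gene lists were chosen with earlier results of these data known.

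Counts were summed per library and class. Tests used edgeR 4.0.16 (R 4.3.3, filterByExpr, TMM, quasi-likelihood F-test, two-sided, adjusted by Benjamini-Hochberg over all genes at 0.05), and DESeq2 1.42.0 as an alternative. On data simulated from the dentate granule sums for PS19 against WT, 64.6% of genes changed 2-fold and 92.6% of those changed 4-fold were called, among 17180 genes tested. For neurons against glia, among 13723 genes tested, these shares were 96.3% and 100.0%. The simulated spread was set in advance, not taken from these libraries, and every class drew on the granule-neuron profile. The shares therefore do not carry over to smaller classes or sparse genes. Named were all 10 members, per list and comparison at most 3 called genes by adjusted p, and the 3 genes most like Vps35, Vps26b and Snx27 over the classes. Other alternatives were scaling, filter, prior, doublets, resolution, depth and left-out libraries.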

Additional observations from a re-analysis of the deposited data

How the results depend on the processing

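No paired analysis was possible because WT and TG_PS19 have 1 library each, so that groups share fewer than 2 replicate numbers. Leaving out a PS19 library leaves no residual degree of freedom, so the genotype comparisons then have folds without a test. The 1 member pair called in PS19 against WT became 0 under DESeq2 (0 pairs with an unadjusted p under 0.05), 0 with nuclei thinned to 1000 UMIs (2 such pairs) and 2 with cluster 4 joined to oligodendrocytes, an alternative chosen after seeing the data. The 1 pair of TG_PS19 against PS19 became 0 under DESeq2 (1 such pair), 0 with thinned nuclei (3), 3 with library totals and 2 with the TG_PS19 nuclei called by Y-linked UMIs. The 2 pairs of TG_PS19 against WT became 1 without a filter, 0 under DESeq2 (0), 0 with thinned nuclei (1) and 0 with the Y-linked nuclei (8). DESeq2 called 0.261%, 0.558% and 0.0986% of all gene and class pairs in the 3 comparisons. Thinning also left fewer pairs to test, 76 of 108, and the cause of the other changes was not tested. Of members called between neurons and glia, thinned nuclei left 5, and the other alternatives gave 7 to 8; leaving out 1 library gave 7 to 8. The Vps26b share of neurons over glia ranged from 16.5 to 19.6 percentage points without 1 library, and thinned nuclei could give no value, since 1 class and library then held no UMI of either gene. Reversed were Snx27 in neurons against glia (-0.11 with library totals, -0.26 thinned), Snx27 in CA1 neurons against the other classes (-0.12 and -0.23) and Snx2 in astrocytes against the other classes (0.0074 thinned). Over single genes and alternatives that gave a test, 1071 values kept direction and side of the threshold, 155 lost the call, 6 gained it and 5 reversed. A further 85 values had no test or no adjusted p, and 84 of them kept their direction and moved by less than their SE.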

Other observations

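The 2 clusters given by number stood outside the tested classes, and their members are given as values. Cluster 4, led by Enpp6 with Anln and Hapln2 also among its leading genes, had oligodendrocyte markers at 19838 to 21015 CPM. Its committed-precursor markers summed to 463.0 to 501.9, against 132.0 to 170.4 in oligodendrocytes. That list summed higher in astrocytes (677.1 to 757.5) and microglia (616.4 to 801.2) and lower in dentate granule neurons (7.37 to 9.68). The sum alone therefore does not set the stage of the cluster. Snx1 in cluster 4 stood at 180.2, 213.5, 200.4 and 193.0 CPM in WT, PS19 replicates 1 and 2 and TG_PS19, between the means of oligodendrocyte precursors and oligodendrocytes. Its Snx27 stood at 62.8, 87.5, 84.4 and 68.5 CPM, a log2 fold of PS19 over WT of 0.49 that was not called by edgeR (adjusted p = 0.231). Its Vps29 stood at 48.1, 52.8, 48.2 and 33.6 CPM, lowest in TG_PS19 (-0.52 against PS19, adjusted p = 0.255). Cluster 16, with Tshz2 and Rspo2 among its leading genes, had Vps26b at 45.6% ± 7.18 of Vps26a plus Vps26b UMIs (SD, n = 4), close to CA1 neurons. Its Vps29 stood at 46.4, 44.3, 44.4 and 43.2 CPM.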
